A study of Mus musculus with 2 samples.

Results

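To describe where accessible distal sites lie close together in mESCs, clusters of strong distal ATAC peaks were assembled from the peak list of EHMT2-dTAG mESCs. A peak counted as strong if its −log10 q-value was 10 or more, and as distal when its summit, the base of highest signal, lay more than 2000 bp from the start of every protein-coding gene of GENCODE vM21. Strong distal peaks on chromosomes 1 to 19 with summits at most 12500 bp apart were joined, and groups of 3 or more formed a region. This gave 156 regions with 517 peaks, out of 15481 strong distal peaks, 113777 peaks on these chromosomes and 116782 peaks in the whole list. The regions were thus selected on the measured −log10 q-value and on summit position, and their number, spacing and peak strength are given as a description without a test.

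ATAC-seq measures where the transposase Tn5 can cut DNA. The cells were *Mus musculus* ESCs of the line EHMT2-dTAG-mcherry on a BL6/129 hybrid background, in which both copies of endogenous *Ehmt2* carry an FKBP12-based degron, HA tags and an mCherry reporter. All cells received DMSO for 24 h, without the degrader, so that the H3K9 methyltransferase EHMT2 was present, and no other treatment was measured by this assay. The 2 samples were clones with 50000 cells each, kept in medium with FBS and LIF on a layer of mitotically inactive embryonic fibroblasts, so DNA of feeder cells can enter the libraries. The deposited list was called once on both clones together, so no value below has a spread between replicates and library totals were not analysed here. A peak was present within 500 bp of the start of 4 of 6 mESC marker genes (*Pou5f1*, *Sox2*, *Nanog* and *Zfp42*, but not *Esrrb* or *Tdgf1*), and of 4 of 10 fibroblast markers (*Thy1*, *Pdgfrb*, *Prrx1* and *Lox*, but not *Col1a1*, *Col1a2* or *Col3a1*). It was also present at 3 of 3 neural markers (*Pax6*, *Sox1* and *Neurod1*), 3 of 4 of trophoblast and 2 of 4 of endoderm, and at 58.5% of all protein-coding genes, so peaks at these starts did not set the labelled cell type apart. The part of feeder cells in the regions was not tested.

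Enhancers are stretches of DNA bound by transcription factors that raise the transcription of genes at a distance, and they are accessible to Tn5 when occupied. Several enhancers near one another are common around genes that specify a cell's identity, and in mESCs such clusters carry OCT4, SOX2, KLF4 and ESRRB. Accessible DNA away from protein-coding starts can also be a promoter of a noncoding RNA gene, a site bound by the insulator protein CTCF, or a copy of a transposable element.

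Sequences of 3 sets of region peaks are shown as examples, each of which concerns few of the regions: repeated RNA genes, motifs of pluripotency factors in unmasked DNA and copies of one repeat. The first set comes from the region with the most peaks, on chromosome 1, in which 3 of the 7 summits lie in alike sequence. All sequences are RefSeq's for GRCm38.p6 (mm10) and are written 5′ to 3′. Those of the first set are on the plus strand, at chr1:72226274-72226441, chr1:72244247-72244414 and chr1:72255042-72255209. Capitals mark the bases that are not the same in all 3, and 161 of 168 aligned positions (95.8%) were identical.
Mreg peak 3: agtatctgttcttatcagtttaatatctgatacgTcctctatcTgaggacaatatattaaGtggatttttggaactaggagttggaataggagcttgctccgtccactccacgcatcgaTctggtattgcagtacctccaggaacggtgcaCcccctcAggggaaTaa
Mreg peak 6: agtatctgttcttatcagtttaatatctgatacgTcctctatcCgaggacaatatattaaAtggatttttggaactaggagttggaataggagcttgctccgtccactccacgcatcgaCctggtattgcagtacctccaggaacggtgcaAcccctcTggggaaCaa
Mreg peak 7: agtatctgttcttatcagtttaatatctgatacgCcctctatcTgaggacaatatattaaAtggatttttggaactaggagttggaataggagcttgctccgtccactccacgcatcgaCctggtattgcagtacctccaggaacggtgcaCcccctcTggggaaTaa

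The second set shows the octamer ATGCAAAT, the sequence read by the POU domain of OCT4 and its relatives, in capitals. It is shown for peaks near *Fgfr1*, *Nr2f1* and *Sptbn1*, together with the ESRRB half-site CAAGGTCA near *Klf4* and the SOX motif ACAATGG near *Phc1*. *Nr2f1* was chosen after its values were seen, and so was the display of the other 4, since none of the 6 region peaks within 100 kb of a pluripotency gene held an octamer or a joined Sox-Oct motif. The stretches lie at chr8:25545183-25545270 (minus strand), chr13:78171599-78171656 (minus), chr11:30177263-30177350 (plus), chr4:55477459-55477508 (minus) and chr6:122366324-122366410 (plus), in that order.
Fgfr1 peak 3: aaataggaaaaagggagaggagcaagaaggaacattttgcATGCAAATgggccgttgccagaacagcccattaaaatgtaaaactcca
Nr2f1 peak 2: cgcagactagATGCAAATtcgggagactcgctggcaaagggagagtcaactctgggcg
Sptbn1 peak 1: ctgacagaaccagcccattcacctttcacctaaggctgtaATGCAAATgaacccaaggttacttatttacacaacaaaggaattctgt
Klf4 peak 3: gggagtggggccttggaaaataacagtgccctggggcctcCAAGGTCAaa
Phc1 peak 3: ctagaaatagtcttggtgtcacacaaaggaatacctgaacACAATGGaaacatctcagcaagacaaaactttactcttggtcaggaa

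The third set is a pair of peaks in an intron of *Rims2* on chromosome 15, chosen after its values were seen, in fully repeat-masked sequence. The window of 300 bases around either summit had an identical copy of 300 bases at the other peak, shifted relative to that summit, and a stretch of each with its octamer in capitals is shown for chr15:39242164-39242251 and chr15:39247298-39247385, both on the minus strand.
Rims2 peak 1: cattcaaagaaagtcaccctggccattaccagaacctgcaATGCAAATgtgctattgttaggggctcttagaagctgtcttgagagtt
Rims2 peak 2: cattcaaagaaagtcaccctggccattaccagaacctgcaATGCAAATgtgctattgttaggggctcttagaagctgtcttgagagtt

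Most strong distal peaks stood alone. Of the 15481 peaks, 12740 (82.3%) had no other strong distal peak within 12500 bp, 1112 groups were pairs, and 517 peaks (3.34%) were in regions. The regions were small, as 118 held 3 peaks, 31 held 4, 4 held 5, 2 held 6 and 1 held 7. They spanned a median of 16.2 kb from first to last summit, with quartiles of 11.9 and 19.6 kb and a range of 5.08 to 49.8 kb, and together took up 2566 kb or 0.107% of the sequenced bases of these chromosomes. Neighbouring summits within regions were a median of 7.41 kb apart, compared with 90.1 kb between all neighbouring strong distal peaks, and 9.53% of those neighbouring gaps were at or below the joining distance that set the difference.

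**Figure D1:**
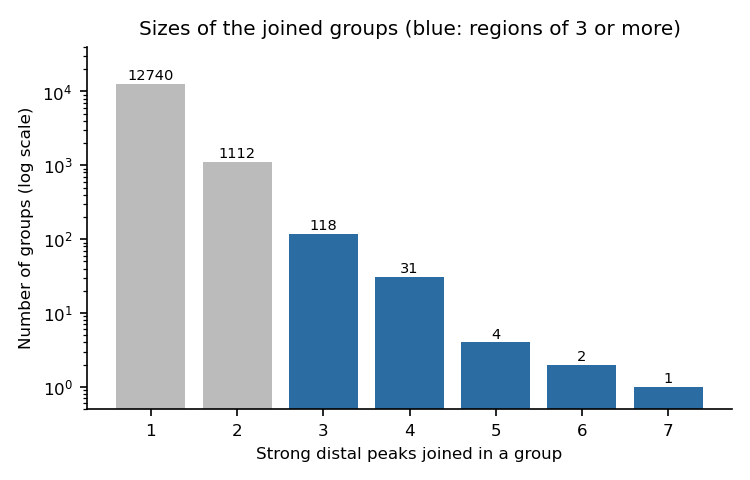
Number of groups (log scale) against the number of strong distal peaks joined in the group, with regions of 3 or more in blue. The counts fall from 12740 single peaks and 1112 pairs to 118 groups of 3 and a single group of 7.

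The thresholds passed through a continuum. The weakest region peak had a −log10 q-value of 10.01, in one of the regions near *Nr2f1*, and the strongest distal peak below the threshold had 9.9988. The region summit closest to a protein-coding start was 2020 bp away. The widest gap inside a region of 3 was 12.487 kb, near *Csnk2a1* on chromosome 2, whereas a pair near *Nsmce3* on chromosome 7 was 12.519 kb apart and was not joined, although the peaks had fold enrichments of 7.55 and 8.26.

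By annotation, region summits lay between genes in 218 of 517 cases (42.2%), in introns of protein-coding genes in 195 (37.7%), in introns of other genes in 52 (10.1%), in exons with a UTR annotation in 20 (3.87%) and in other exons in 32 (6.19%). For single strong distal peaks the shares were 50.9%, 33.5%, 5.79%, 3.79% and 5.94% in the same order. Over all peaks, which include those at gene starts, they were 46.7%, 34.5%, 5.57%, 6.45% and 6.84%. Being distal to gene starts did not mean being distal to every start. Of the 517 summits, 34 (6.58%) lay within 500 bp of an annotated start of a protein-coding transcript other than the gene's first, and 30 (5.80%) within 500 bp of the start of a noncoding gene or pseudogene, compared with 6.03% and 4.54% of single peaks. Over all peaks these shares were 12.2% and 3.60%. Starts of lincRNA genes were this close to 3.09% of region peaks, 1.98% of peaks in pairs, 1.52% of single peaks and 0.944% of all peaks.

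The region with the most peaks lay around the start of *Mreg*, which encodes melanoregulin, a protein of melanosome transport, at chr1:72205035-72255616. Its 7 peaks had fold enrichments of 8.47, 8.07, 8.09, 5.15, 9.60, 8.39 and 13.2 in order along the chromosome, over 31, 50, 75, 52, 80, 72 and 97 fragments at the summit. Of these, the 3rd, 5th, 6th and 7th, which carried the 4 highest fragment numbers, had summits within 184, 409, 177 and 175 bp of the starts of the snRNA genes *Gm25360*, *Gm23472*, *Gm24497* and *Gm25939*. RefSeq names all 4 as U2 spliceosomal RNA, the RNA that pairs with the intron branch site during splicing. The sequences of the first set above overlap 3 of these genes and run past their ends. The 5th summit was also 72 bp from the start of the lincRNA gene *D230017M19Rik*, and 7 weaker peaks lay within the same span.

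A second region also held U2 snRNA genes. At chr11:101641217-101658969, 7.12 kb from the start of *Arl4d*, a GTPase of the ARF family, all 3 summits lay at U2 snRNA genes, namely *Gm24950*, *Gm23971* and *Rnu2-10*, at 160, 14 and 185 bp from their starts. The peaks had fold enrichments of 6.95, 6.07 and 9.72 over 36, 32 and 41 fragments, fewer in every case than at the snRNA genes next to *Mreg*. This region was chosen after its annotation was seen. Both regions together account for 7 of 517 region peaks (1.35%) within 500 bp of an snRNA gene start, whereas the share was 0.135% of peaks in pairs, 0.133% of single strong distal peaks and 0.0598% of all peaks. Of the 1292 snRNA genes annotated on chromosomes 1 to 19, 68 (5.26%) had any peak this close and 36 (2.79%) a strong one. Members of this gene family are near copies of each other, so fragments may be divided among them with error.

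The region with 6 peaks at chr4:106827235-106871123 lay between protein-coding genes, 22.9 kb from the start of *Acot11*, an acyl-CoA thioesterase, and 39.8 kb from that of *Ssbp3*, a single-stranded DNA-binding cofactor of LIM-domain complexes. Its fold enrichments were 8.33, 9.48, 11.8, 6.65, 5.81 and 6.91 over 24, 50, 46, 36, 24 and 24 fragments. No summit was repeat-masked, the first 2 windows were rich in CpG with 23 and 30 CpGs in 300 bases, and the fifth summit fell into an enhancer that RefSeq lists from the VISTA transgenic assays. The third summit, of the highest fold enrichment, was 297 bp from the start of the lincRNA gene *Gm12746*, which lay inside the span. The other region with 6 peaks lay within *Fbxo36*, which encodes an F-box protein, at chr1:84860568-84892219, with the start of *Trip12*, an E3 ubiquitin ligase, at 20.4 kb. Its fold enrichments had a minimum of 4.32, over 23 to 58 fragments, and 2 of the 6 summits were repeat-masked.

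Of the regions with 5 peaks, the one at chr6:128734521-128764606 lay 11.8 kb from *Klrb1*, a lectin-like receptor gene of natural killer cells, where no peak marked the gene start. Its peaks had fold enrichments of 8.87, 15.035, 11.5, 7.72 and 9.16 over 24, 42, 40, 91 and 110 fragments, so the highest fold enrichment did not go with the most fragments. A second region, of 4 peaks, followed 75.5 kb further on, next to *Klrb1b* of the same receptor family. The region 31.0 kb from *Pawr*, a regulator of apoptosis, at chr10:108286473-108301276 was the most compact of the 10 with the most peaks, with 5 peaks in 14.1 kb. One peak, with 110 fragments and a fold enrichment of 9.25, stood at its edge, and the other 4 had 59, 51, 44 and 34 fragments and fold enrichments between 4.68 and 5.09. At chr11:33527394-33551635, 5 peaks of 19 to 31 fragments lay 13.8 kb from the start of *Ranbp17*, a nuclear transport receptor. The start of *Gabrp*, a GABA receptor subunit, was 27.8 kb away, and the span overlapped the *Gabrp* gene.

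On chromosome 8, 2 neighbouring regions were nearest to *Trmt9b*, which encodes a tRNA methyltransferase. The region of 5 peaks at chr8:36520377-36549471 had 26 to 76 fragments at its summits, and 45.0 kb further on 4 peaks at chr8:36593545-36614367, in an intron of *Dlc1*, had 65, 41, 42 and 131. Since 31 regions had 4 peaks each, the last 3 of these 10, all with 4 peaks, were taken by the larger sum of −log10 q-values. At chr17:16996842-17018529, 45.8 kb from the zinc finger gene *Zfp960*, the second of 4 peaks had 160 fragments and a fold enrichment of 17.5, while the last pair had 20 and 29 fragments. All 4 windows here also matched other places in the genome, and the third, fully repeat-masked, had 308 near-identical copies, so these numbers are uncertain. In an intron of *Sptbn1*, which encodes a beta-spectrin, at chr11:30176955-30198818, the outer 2 of 4 peaks had fold enrichments of 15.2 and 17.0 and the inner 2 of 6.78 and 6.52. The octamer shown above for *Sptbn1* lay 95 bp from the first of these summits.

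**Figure D2:**
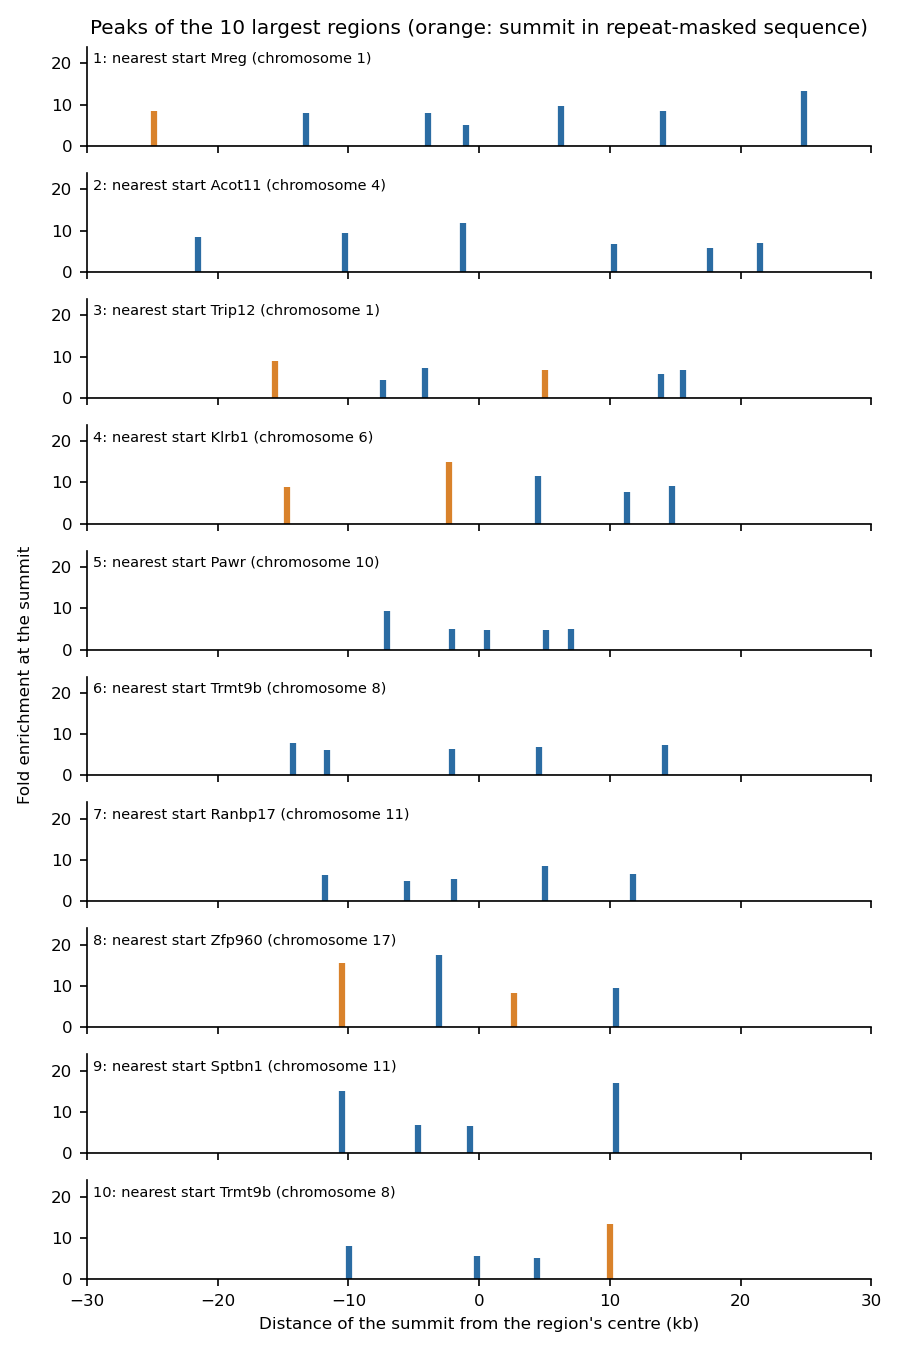
Fold enrichment at each summit against its distance from the region's centre in kb, for the 10 regions with the most peaks, named by the nearest protein-coding start, with repeat-masked summits in orange. The 7 peaks near *Mreg* spread over 49.8 kb with values from 5.15 to 13.2, whereas the outer peaks near *Sptbn1* stand at 15.2 and 17.0 over inner peaks below 7.

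The ratio of the highest to the lowest fold enrichment within a region had a median of 1.53 and ranged from 1.04 to 3.19. Fragment numbers could differ more, as near *Zfp960* with 20 to 160, where the windows also match other places. The highest was at an outer peak in 111 of 156 regions, and in 88 of the 118 regions with 3 peaks, where 2 of 3 peaks are outer. Weaker peaks filled in some spans, with 112 in 65 regions, and 7 regions also held a strong peak near a protein-coding start.

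The fragment numbers of region peaks were set beside those of other peaks. Region peaks had a median of 34 fragments at the summit (quartiles 26 and 50), single strong distal peaks 27 (21 and 39) and strong peaks within 500 bp of gene starts 42 (29 and 64). Fold enrichment was ordered the other way for distal peaks, with medians of 7.60 for region peaks, 8.02 for peaks in pairs and 8.75 for single peaks. The local background that links both values, the number of fragments expected at the summit, had a median of 3.58 in regions, 2.78 in pairs and 2.16 at single peaks. MACS2 takes this background from the surroundings of a peak, which for region peaks hold other strong peaks, and the contribution of neighbours to it was not tested. Since both values derive from the calls that chose the regions, they are no independent measure of accessibility.

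**Figure D3:**
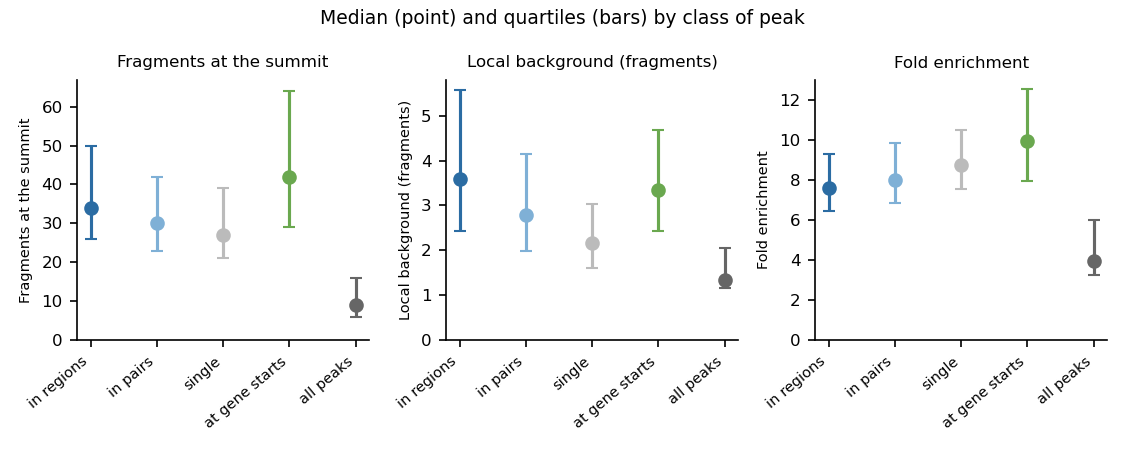
Medians (points) and quartiles (bars) of fragments at the summit, local background in fragments and fold enrichment, for peaks in regions, in pairs, single, at gene starts and all peaks. From single peaks to pairs to regions, fragments rise from 27 to 34 and background from 2.16 to 3.58, while fold enrichment falls from 8.75 to 7.60.

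Next, genes with known roles in mESCs were examined. Of 25 pluripotency factors on chromosomes 1 to 19, 2 (8%) had a region within 100 kb of their start, namely *Klf4* and *Zfp281*, compared with 410 of 20807 protein-coding genes (1.97%). *Klf4* encodes a zinc finger activator of the naive state. Its region at chr4:55463857-55478365, 54.9 kb away, had 3 peaks with 45, 49 and 66 fragments and fold enrichments of 9.35, 5.75 and 7.53, none repeat-masked, and the third held the ESRRB half-site shown above at 144 bp from the summit. The start of *Klf4* had a peak with a fold enrichment of 5.68. *Zfp281*, a zinc finger factor that regulates the exit from the naive state, had its region at chr1:136689930-136707966, 65.4 kb away, with 24, 65 and 58 fragments. The second summit there was 13 bp from the start of the lincRNA gene *Platr22*, one of the transcripts named for their association with pluripotency.

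The core factors had single strong distal peaks or none. *Nanog* had 6 strong distal peaks within 100 kb of its start, but no 2 of them were joined, and the highest had a fold enrichment of 10.1. *Esrrb* had 3, *Sox2* 2 and *Pou5f1* 0, again without a joined pair. The starts of *Sox2*, *Nanog* and *Pou5f1* had peaks with fold enrichments of 5.22, 4.12 and 2.83, and that of *Esrrb* none. Peaks at gene starts were present for 19 of the 25 pluripotency factors (76%), compared with 58.5% of all protein-coding genes. The count of regions near these genes depended strongly on the q-value threshold, the joining distance, the minimum number of peaks and the distance from the gene start, as described under the processing alternatives.

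Among other lists, chromatin regulators and developmental genes each had 1 or 2 genes near a region, beside 410 of 20807 protein-coding genes (1.97%). Of 20 genes of DNA and H3K9 methylation, *Tet2* and *Cbx5* had one (10%). *Tet2* encodes a 5-methylcytosine dioxygenase, and its region lay inside the gene at chr3:133518341-133534569, with 32, 45 and 65 fragments, although no peak marked the gene start. *Cbx5* encodes the H3K9 methylation reader HP1α and had its region 65.6 kb away, across the start of *Gpr84*, with 36, 38 and 28 fragments. Of 14 Polycomb genes, 1 (7.14%), *Phc1*, a subunit of PRC1, had a region 6.96 kb from its start, with 40, 19 and 36 fragments. Its last summit was 16 bp from the SOX motif shown above. Of 24 germ layer-associated transcription factors, 1 (4.17%), *Pax6*, had a region within 100 kb. *Pax6* is a regulator of eye and neural development, and its region of 4 peaks lay inside the gene, with 58, 48, 32 and 60 fragments.

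Of 24 genes of LIF, FGF, Nodal and BMP signalling, 1 (4.17%) had a region within 100 kb. It was *Fgfr1*, the FGF receptor that acts in the exit from pluripotency. The region lay in its introns at chr8:25536092-25545410, with 26, 45 and 54 fragments. Both the second and the third summit fell into the same VISTA enhancer listed by RefSeq. None of the 19 2CLC-associated genes, 15 fibroblast markers and 14 housekeeping genes had a region within 100 kb, beside 1.97% of all protein-coding genes. At that share, lists of this size would be likely to hold none. Peaks at gene starts were found for 1 of the 19, 5 of the 15 and 11 of the 14, beside 58.5% of all protein-coding genes. These lists are short, so that 1 gene moves a share by several percent, and nothing particular to a list is drawn from them.

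Across all regions, the nearest protein-coding start was a median of 29.2 kb from the closer end of the span, and 127 of 156 regions had one within 100 kb. A start lay inside the span of 12 regions, 57 regions (36.5%) lay within one protein-coding gene and 72 overlapped none. Of the 150 different nearest genes, 97 (64.7%) had a peak at their start, compared with 12169 of 20807 protein-coding genes (58.5%). Apart from *Trmt9b*, the genes nearest to 2 regions included *Nr2f1*, *Chd2* and *Tgif1*, which were picked out for this after the regions had been seen. *Nr2f1*, a nuclear receptor of neural differentiation, had regions on both sides of a gap of 22.3 kb. In the one further from the gene the peaks had 81, 33 and 17 fragments, and in the one 2.06 kb from its start 44, 33 and 24. *Chd2*, a chromatin remodeller, had its pair 57.6 kb apart, and *Tgif1*, a repressor of TGF-β targets, 51.0 kb apart. One region of the *Tgif1* pair lay within *Dlgap1*, 98326 bp from the *Tgif1* start, and the other overlapped *Dlgap1*, 18937 bp from that start. The strongest fold enrichment of any region peak, 17.7 over 63 fragments, was 29.0 kb from the start of *St18*, a zinc finger factor of neural cells, and this too was singled out after seeing it.

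Repeat content was then compared between classes of peaks. A summit in repeat-masked sequence was found for 96 of 517 region peaks (18.6%), 31.2% of peaks in pairs, 42.7% of single strong distal peaks, 26.7% of all peaks and 3.71% of strong peaks at gene starts. Windows masked over all 300 bases made up 5.42% in regions, 13.6% in pairs, 26.6% among single peaks and 7.89% of all peaks. The masked summits were spread thinly, as 91 regions had none, 59 had some and 6 had only masked summits. Sequence did not enter the rule, but reads from repeats are harder to place and peaks of 1 list are not replicates, so these shares are set side by side without a test. GC content averaged 52.8% in region windows, 53.5% in pairs, 55.3% in single ones and 51.6% over all peaks. The medians were 5, 6, 8 and 4 CpGs in the same order, so regions were nearer to all peaks than single peaks were.

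To learn which peaks could exchange reads with other loci, the 300-base windows were searched in the genome. Of 517 windows, 88 (17.0%) matched another place at 90% identity or more over at least 50% of their length, and 41 (7.93%) had a near-identical copy, with 98% identity or more over at least 285 bases. Near-identical copies were found for 13 of 421 windows with an unmasked summit (3.09%), 28 of 96 with a masked one (29.2%) and 25 of the 28 fully masked windows. In 109 regions no peak had another match. Because the aligner was set to report a single position for reads with equally good matches, the fragment numbers of these 41 peaks are uncertain.

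Some regions were built from copies of a sequence. In an intron of *Camk4*, 3 peaks, with 43, 49 and 55 fragments, had windows that matched a stretch at each of the other 2 peaks with 98.7% to 100% identity over 300 bases or more, and each held a YY1 motif. Near *Rims2* the pair shown above had 21 and 27 fragments, and the 3rd peak had 25. In *Def8* on chromosome 8 the windows of the first 2 of 4 peaks, with 100 and 103 fragments, each had an identical stretch of 300 bases at the other peak, and near *Ccng1* on chromosome 11 the windows of peaks 2 and 3 matched a stretch at the other peak with 99.7% identity. These 4 regions were named after the search. Leaving out the 41 peaks with near-identical copies left 134 regions, an alternative added after seeing the data.

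Motifs were searched in the same windows on both strands, as exact strings. The octamer ATGCAAAT was present in 29 of 517 region windows (5.61%), 4.81% of windows in pairs, 3.96% of single ones, 1.34% at gene starts and 2.99% of all. By masking, it was in 18 of 421 unmasked region windows (4.28%) and 11 of 96 masked ones (11.5%), compared with 5.11% and 2.43% of single peaks, so that among unmasked windows the share was lower in regions than at single peaks. Unmasked windows in pairs held it in 3.99%, those at gene starts in 1.34% and those of all peaks in 2.75%. The pair near *Rims2* and the pair near *Ccng1* supply 4 of these 11. The composite Sox-Oct motif, CATTGT and ATGCAAA with 1 base between them, was in 0 region windows and in 0.0471% of single ones, which is too rare to compare.

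ACAATGG for SOX factors was in 6.38% of region windows, 6.83% of windows in pairs and 5.84% of single ones. In the same order CAAGGTCA for ESRRB was in 3.87%, 5.13% and 3.58%, and GGGTGTGG for KLF factors in 5.42%, 5.31% and 3.85%. Over all peaks, the SOX, ESRRB and KLF strings were in 5.23%, 3.03% and 4.39%. Among windows with an unmasked summit the order of regions and single peaks turned for all 3. There the SOX string was in 6.65%, 7.06% and 6.75%, the ESRRB string in 3.33%, 5.82% and 3.999%, and the KLF string in 4.99%, 6.27% and 5.51%. Unmasked windows of all peaks held the SOX, ESRRB and KLF strings in 5.05%, 3.12% and 4.52%, each below the share in regions. TGANTCA for AP-1 was in 11.2% of region and 8.38% of single windows, with 9.71% of all windows, but in 11.6% and 11.4% of unmasked ones, with 10.5% over all peaks. AGGGGGC from the CTCF motif was in 7.54% of all region and 7.45% of all single windows, with 7.92% over all peaks. Of unmasked windows, 8.79% in regions, 11.5% at single peaks and 9.33% over all peaks held it. The E-box CACGTG was in 4.64% of region and 4.69% of single windows, and in 5.46% and 5.78% of unmasked ones. Over all peaks it was in 5.17%, and in 5.39% of unmasked windows. The YY1 motif AANATGGCG differed more than these, with 2.32% in regions, 7.60% in pairs and 15.7% of single windows. At gene starts it was in 4.87% and over all peaks in 3.54%, so the share in regions was nearer to that of all peaks than the share at single peaks was. All 12 region windows with it had masked summits. Among windows with a masked summit alone it was in 12 of 96 in regions, 23.5% in pairs and 35.6% of single ones. Masked windows of all peaks held it in 10.3% and those at gene starts in 5.26%, each below the share in regions. In windows of 100 bases to either side of the summit, the order of regions and single peaks turned for 3 strings. The SOX string was then in 4.26% and 4.47%, the CTCF string in 4.26% and 4.71%, and the E-box in 3.48% and 3.04%. Matches are strings in a window and were not shown to be bound.

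**Figure D4:**
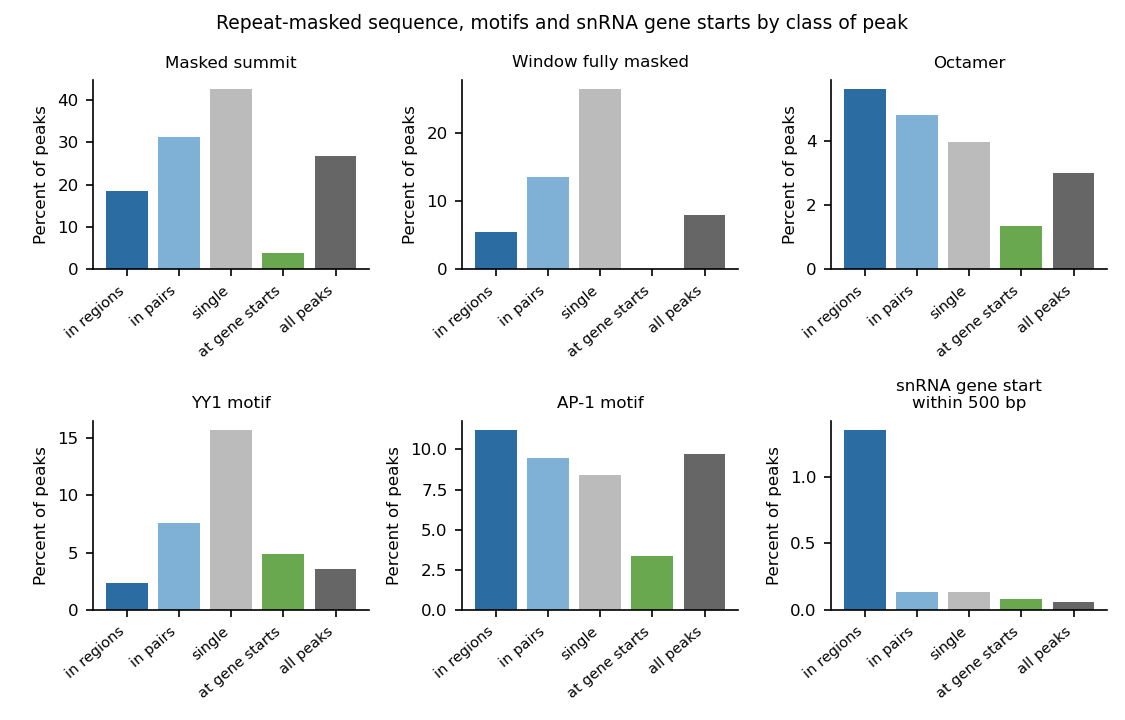
Percent of peaks with a masked summit, a fully masked window, the octamer, YY1 or AP-1 motif in the 300-base window, or an snRNA gene start within 500 bp, by class of peak (each panel has its own axis from 0). Masked summits fall from 42.7% of single peaks to 18.6% of region peaks and the YY1 motif from 15.7% to 2.32%, while snRNA gene starts reach 1.35% in regions. Over all peaks, 26.7% have a masked summit and 3.54% the YY1 motif.

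Chromosome 8 held 27 of the 156 regions. This was 21.5 per 100 Mb, whereas the other autosomes had between 0.825, on chromosome 9 with a single region, and 12.0, on chromosome 17. It also had the highest density of strong distal peaks, 8.89 per Mb compared with 4.57 to 7.32 elsewhere, and 8.06% of them were in regions, compared with up to 5.37% elsewhere. The local background moved with this. Over all peaks it had a median of 1.54 fragments on chromosome 8 and 1.32 on the others, and at region peaks of 5.19 and 3.30. Fragments at region summits had medians of 41.5 and 33, and fold enrichments of 6.80 and 7.69. Masked summits made up 11.1% of region peaks there and 20.1% elsewhere. The part of chromosome copy number or of the denser peaks in the number of regions was not tested.

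**Figure D5:**
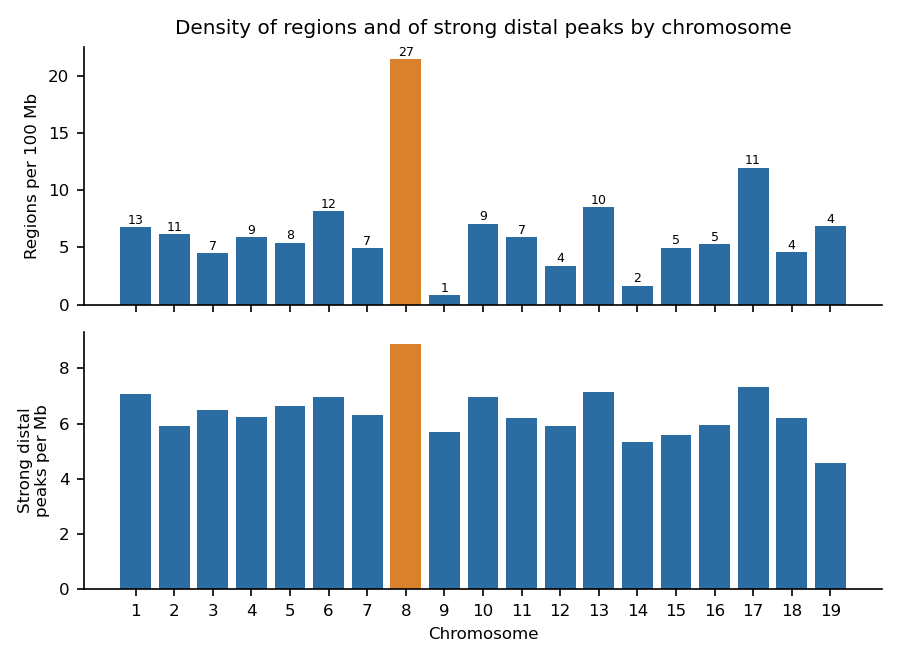
Regions per 100 Mb, with the number of regions above each bar, and strong distal peaks per Mb for chromosomes 1 to 19, with chromosome 8 in orange. Chromosome 8 has 21.5 regions per 100 Mb and 8.89 strong distal peaks per Mb, above every other autosome in both panels.

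Finally, regions were located relative to ECORDs, the clusters of genes coordinately repressed by EHMT2 that the study defined by RNA-seq. Of 156 regions, 2 (1.28%) overlapped one of the 86 ECORDs on chromosomes 1 to 19 with higher expression in 2CLCs, compared with 2.35% of single strong distal peaks inside them and with 2.87% of sequenced bases covered. One of the 2 regions was near *C130073F10Rik* on chromosome 4, with 34, 26, 28 and 46 fragments. The other, on chromosome 17, had 35, 39 and 91 fragments and overlapped no protein-coding gene. Its nearest start, that of the NOTCH ligand gene *Dll1*, was 128825 bp away. Its summit with 91 fragments was 130 bp from the start of the lincRNA gene *Gm5091*. The region near *C130073F10Rik* also overlapped an ECORD at 24 h and at 7 d of depletion, the only region to do so (0.641%). These ECORDs hold 0.243% and 0.432% of single peaks and cover 0.290% and 0.576% of sequenced bases. None overlapped the 7 ECORDs with higher expression in mESCs, which cover 0.150% of sequenced bases and hold 0.196% of single peaks. These overlaps were counted and not tested, and they were added after the peaks had been seen.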

How the data were processed

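ATAC-seq was performed on 2 clones of EHMT2-dTAG mESCs after 24 h in DMSO. Following the study's methods and the submitters' processing notes, the authors used BBMap for trimming and STAR 2.7.10 for alignment to mm10 (1 best location per read), removed duplicates with Picard 2.26.0 and High Signal Regions with SAMtools 1.14 and bedtools 2.30.0, applied the Tn5 shift and called peaks with MACS2 2.2.6 on both clones merged. The deposited fold enrichment is the ratio of fragments at the summit to local background, with 1 added to each. As deposited, −log10 q-values and −log10 p-values are those at the summit. Fragment numbers were calculated back from fold and p-value by the formulas of MACS2 and were whole, within 0.01 of the −log10 p-value, for all 113777 peaks on chromosomes 1 to 19. They cover counting error only. The 3005 peaks elsewhere were left out.

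Region members, gene lists and motifs were chosen with earlier results of these data known. Named are the 10 regions with the most peaks (ties by the larger sum of −log10 q-values), those within 100 kb of pluripotency genes, up to 3 genes of each other list, and examples at the thresholds. Others are marked in the text. One sequence is not reported here. With 1 pooled list no test was made. Repeat masking and sequence came from RefSeq GRCm38.p6, gene starts from GENCODE vM21. Windows were 150 bases to either side of the summit. Copies were searched with BLAST+ 2.17.0 and aligned with MAFFT 7.526. Calculations used Python 3.11.15, pandas 2.3.3, NumPy 2.4.6 and SciPy 1.17.1, were checked on simulated data, and alternatives changed 1 choice at a time.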

Additional observations from a re-analysis of the deposited data

How the results depend on the processing

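The number of regions was set by the thresholds. Against 156 regions, 517 peaks, a median span of 16.2 kb and 8% of pluripotency genes within 100 kb of a region, a −log10 q-value of at least 20 gave 19 regions and 61 peaks, and one of at least 5 gave 965 and 3308 with 56% of these genes (11.8% of all protein-coding genes, against 1.97% as reported). Joining at 5 kb gave 10 regions, 32 peaks, a span of 6.03 kb and 0% of these genes (0.159% of all). Joining at 25 kb gave 502 regions, 1747 peaks, a span of 28.8 kb and 28% of these genes (6.39% of all), with 23.6% masked summits (18.6% in the regions as reported) and 27.5% of regions within a gene (36.5%). With starts of transcripts in place of genes, 27.8% lay within a gene. Leaving out masked summits gave 100 regions and 328 peaks, with 0% masked by construction. Requiring 4 or more peaks gave 38 regions, 163 peaks and 0% of pluripotency genes (0.452% of all). Within 50 kb, 0% of pluripotency genes and 1.07% of all had a region. The other 39 values for these quantities, including those without chromosome 8, with a wider distance from gene starts, with gaps between peak edges and without peaks that have a near-identical copy, moved by less than the limits used. For the last of these alternatives, the span limit was a fraction of the interquartile range of spans. The limits were otherwise 1.5 times for a number, 1 SD for a span and the 95% Wilson interval for a share. These limits are wide for 25 pluripotency genes, whose share was 4% under the stricter q-value threshold (0.154% of all genes) and without masked summits (1.42%), and 12% with gaps between peak edges (2.259%). No paired analysis was possible because the deposited list merges the clones, and leaving out a clone was not possible for the same reason. The first peak near *Mreg*, with 31 fragments, had a 95% interval of 21.1 to 44.0 from counting error alone, so order among peaks of similar strength is uncertain.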
